A study of Mus musculus with 9 samples.

Results

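The natriuretic peptide system was represented by 6 of the 23747 genes measured: Nppa and Nppb, which encode atrial and B-type natriuretic peptide, Corin, which encodes the protease that activates the atrial peptide, and the receptor genes Npr1, Npr2 and Npr3. They were taken by symbol and were found in the table of every mouse. Their levels were followed over 9 mouse hearts by sNuc-seq, the sequencing of RNA from single nuclei in droplets, where transcripts are counted as unique molecular identifiers (UMIs) under the barcode of their nucleus.

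The mice were C57BL/6 animals, 8 weeks old per the methods, and each of the 3 groups had 3 mice. Sham animals were given the vehicle, a sodium carboxymethyl cellulose solution, by gavage for 7 days and then the operation without ligation. I/R mice received the same vehicle for 7 days and were then subjected to 30 min of ligation of the left anterior descending coronary artery and 24 h of reperfusion. The SBP group was given Shexiang Baoxin Pill (labelled MUSKARDIA) for 7 days in place of the vehicle alone and then the same ischemia and reperfusion. All hearts were thus exposed to gavage and thoracotomy, and no group received the pill without ischemia. Tissue was taken below the ligature, so that injured and spared myocardium were pooled within a mouse.

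Natriuretic peptides are hormones that the heart releases when its wall is stretched. They lower blood pressure and blood volume. Nppa is made mainly in the atria, Nppb also in ventricular cardiomyocytes, and both genes belong to the fetal program that ventricles re-express under load or injury. The precursors are cleaved by the proteases corin and furin. Npr1 and Npr2 encode receptors with a guanylyl cyclase domain that raise cyclic GMP, the first for the atrial and B-type peptides and the second for C-type peptide. Npr3 encodes the clearance receptor, which lacks the cyclase and takes peptides up for degradation.

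The 9 samples held 49171 nuclei and 135423852 UMIs, with 4576 to 6418 nuclei and 10329520 to 18205984 UMIs per mouse and a median of 1540 to 2031 UMIs per nucleus. Of these nuclei, 580 had a barcode that also occurred in another library. Removal of 85 nuclei marked as doublets left 49086, among them 10540 cardiomyocytes, 13451 endothelial cells, 14131 fibroblasts and 9571 myeloid cells. Endothelial nuclei were divided into 7893 capillary, 3882 endocardial, 820 arterial and 856 lymphatic nuclei. Markers of veins were also used, but no cluster took that name, so any venous nuclei were counted within these sets. The endocardial set pooled a cluster of 3819 nuclei with one of 67, led by Lsamp, counted before doublet removal. The fibroblasts pooled a cluster of 12283 nuclei with a smaller cluster of 1861, counted before doublet removal. Tnc, Cthrc1 and Postn were among the leading genes of the smaller cluster. The part of this mix in the fibroblast values below was not tested. All types were named from marker genes that did not include the 6 genes, and each name means only that the nuclei resembled that type. Atrial markers were low in the cardiomyocytes. The atrial gene Sln had 0 UMIs among the 59535634 of all cardiomyocytes, which allows a level of up to 0.0504 CPM (UMIs of the gene scaled to a total of 1000000), the atrial gene Myl7 had 1 UMI, and Myl4 lay between 2.22 and 7.97 CPM in every mouse.

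Cardiomyocytes of different mice separated in the clustering. Cluster 0 held 2716 nuclei, 96.5% of them from sham 1 and sham 3, and cluster 3 held 1361 nuclei, 92.8% of them from sham 2. Cluster 1 was drawn mainly from I/R 2 and SBP 1, cluster 2 from SBP 2 and SBP 3, cluster 4 from I/R 3 and cluster 5 from I/R 1. The last of these was led by Spp1, Gpnmb and Lyz2, genes that macrophages also express. Cluster 6, with 394 nuclei, was found in all mice (19 to 79 nuclei each) and carried the conduction system genes Cntn2, at 63.8 CPM against 0 to 0.713 CPM in the other clusters, Etv1, at 134 CPM against 7.84 to 18.2 CPM, and Hcn4, at 9.52 CPM against 0.562 to 4.18 CPM. Irx3, the fourth conduction gene examined, was not highest there, at 22.4 CPM against 7.39 to 29.6 CPM. The atrial gene Myl4 was 18.6 CPM in cluster 6, against 2.49 to 4.99 CPM in the other clusters. Group values of cardiomyocytes below therefore compare largely different clusters. No correction between libraries was applied before clustering. Clusters 3, 4 and 5 drew 92.8, 96.5 and 97.6% of their nuclei from 1 mouse each, so their levels largely restate those of that mouse.

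Nppb and Nppa are neighbours. The files use the mouse build GRCm38, on which GENCODE M21 places Nppb at chr4:147985788-147987205 and Nppa at chr4:148000722-148002079, both on the plus strand and 13.5 kb apart. Their RefSeq promoters, 250 bases before to 50 bases after the annotated start on GRCm38.p6, are shown because these are the 2 peptide genes and their cardiomyocyte levels are compared here. The windows lie at chr4:147985650-147985949 and chr4:148000472-148000771 on the plus strand. For Nppb the RefSeq start lies downstream of the GENCODE start given above. Capitals mark matches to the GATA motif (TGATAA or AGATAA) and to the TATA motif (TATAAA).
Nppb: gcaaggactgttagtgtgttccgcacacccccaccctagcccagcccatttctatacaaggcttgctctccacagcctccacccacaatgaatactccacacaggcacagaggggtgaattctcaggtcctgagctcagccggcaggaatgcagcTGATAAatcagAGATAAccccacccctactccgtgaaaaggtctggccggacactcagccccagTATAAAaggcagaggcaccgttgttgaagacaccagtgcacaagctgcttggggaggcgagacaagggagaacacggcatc
Nppa: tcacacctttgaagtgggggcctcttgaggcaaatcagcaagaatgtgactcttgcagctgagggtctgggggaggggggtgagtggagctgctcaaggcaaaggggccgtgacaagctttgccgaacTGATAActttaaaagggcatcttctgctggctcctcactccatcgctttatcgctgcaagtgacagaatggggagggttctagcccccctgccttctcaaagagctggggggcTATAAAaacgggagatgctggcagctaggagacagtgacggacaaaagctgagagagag
The Nppb window held 2 GATA matches and 1 TATA match, the Nppa window 1 of each. On both strands, 18.6% of 32851 mouse promoters of the same length held the GATA motif and 13.6% the TATA motif. CATTCC, the M-CAT motif, matched once in Nppb and not in Nppa (14.7% of promoters), and AAGTG, the core of the NKX2-5 motif, matched 2 times in Nppa and not in Nppb (46.4% of promoters). TGAGTCA (AP-1, 5.2% of promoters) and TGACGTCA (the cyclic AMP response element, 1.79%) matched neither. None of these letters occurred in the promoter windows of Npr1, Npr2, Npr3 or Corin, which lie on chromosomes 3, 4, 15 and 5.

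The 6 genes differed in the cell types where they were highest. Nppb and Corin were highest in cardiomyocytes, Npr1 and Npr2 in endothelial cells and Npr3 in the endocardium, while Nppa was not higher in cardiomyocytes than in endothelial cells. Levels are CPM of the UMIs summed per mouse and type, given as mean ± SD over mice. Since the types were made by clustering, these differences between types are a description and were not tested.

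Nppb averaged 69.0 ± 42.8 CPM in cardiomyocytes (n = 9), with 10.0 CPM in the lowest mouse and 123 CPM in the highest. It was 15.7 ± 5.62 CPM in endothelial cells, 11.5 ± 4.88 CPM in myeloid cells and 9.88 ± 3.42 CPM in fibroblasts, which did not differ beyond their spread. A UMI of Nppb was found in 16.1% of cardiomyocytes (exact 95% interval 15.4 to 16.8%), against 2.17% of endothelial cells, 2.09% of myeloid cells and 1.97% of fibroblasts. Intervals cover counting error only. Median depth was 4431 UMIs in cardiomyocytes, 1277 in endothelial cells, 1724 in myeloid cells and 1785 in fibroblasts. After every nucleus was thinned to 1000 UMIs, which left out 2402 sham, 1739 I/R and 1779 SBP nuclei, the share was 5.71% in cardiomyocytes (5.27 to 6.17%). It was 1.43% for endothelial, 1.23% for myeloid and 1.08% for fibroblast nuclei. Thinning kept 10527 of 10540 cardiomyocytes, 9364 of 9571 myeloid cells, 12616 of 14131 fibroblasts and 9832 of 13451 endothelial cells. Thinned endothelial shares thus describe the deeper nuclei of that type. The part of free RNA in the counts of these types was not tested.

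Nppa showed no such preference. It averaged 24.5 ± 8.54 CPM in cardiomyocytes, 31.4 ± 19.5 CPM in endothelial cells, 16.7 ± 8.44 CPM in myeloid cells and 15.1 ± 9.26 CPM in fibroblasts, and neighbours in this order overlapped. The thinned share of nuclei with a UMI was 1.53% (1.30 to 1.78%) in cardiomyocytes, 2.07% (1.80 to 2.38%) in endothelial cells, 1.41% in the myeloid set and 1.23% in fibroblasts, against unthinned shares of 4.56%, 2.93%, 2.53% and 2.43%. The thinned share in cardiomyocytes was thus not above that in endothelial cells. Per 1000 UMIs of the cardiomyocyte gene Ttn, Nppa was 0.471 to 2.46 in the cardiomyocytes of the 9 mice and 6.70 to 70.5 in their endothelial cells, and Nppb was 0.557 to 9.30 and 3.55 to 26.6. Per 1000 Myh6 UMIs, another cardiomyocyte gene, Nppa was also lower in the cardiomyocytes than in the endothelial cells of every mouse (0.828 to 11.6 against 5.43 to 59), whereas Nppb was higher in the cardiomyocytes of I/R 2, I/R 3 and SBP 1 and lower in those of the other 6 mice. Nppa UMIs were also concentrated: 109 of 49086 nuclei held 5 or more and together 45.0% of the 3099, and a single cardiomyocyte of sham 3 held 131. The highest endothelial ratios to Ttn and Myh6 were those of SBP 2, where 1 endothelial nucleus held 86 of 130 Nppa UMIs. In smooth muscle cells with pericytes (178 nuclei) the pooled level was 85.8 CPM from 106 UMIs, and in 108 Schwann nuclei 107 CPM from 22 UMIs. These levels rested on 1 library each: 66 of the former UMIs came from sham 3 and 15 of the latter from sham 2, and without them the pooled levels were 40.8 and 38 CPM.

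Corin was found in 94.3% of cardiomyocytes (93.8 to 94.7%) and averaged 2177 ± 463 CPM there. In endothelial cells it was 221 ± 67.6 CPM, in myeloid cells 147 ± 55.6 CPM and in fibroblasts 122 ± 45.2 CPM. Per 1000 UMIs of Ttn, which encodes a giant sarcomere protein, Corin was 87.9 to 225 in the cardiomyocytes of the 9 mice, 103 to 318 in endothelial, 103 to 299 in fibroblast and 97.5 to 308 in myeloid nuclei, ranges that overlapped. Per 1000 UMIs of Myh6, a myosin heavy chain of cardiomyocytes, it was 154 to 1477 in cardiomyocytes and lower in the other 3 types of every mouse (79.6 to 642). The relation to a cardiomyocyte gene thus depended on the gene taken as reference.

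**Figure D1:**
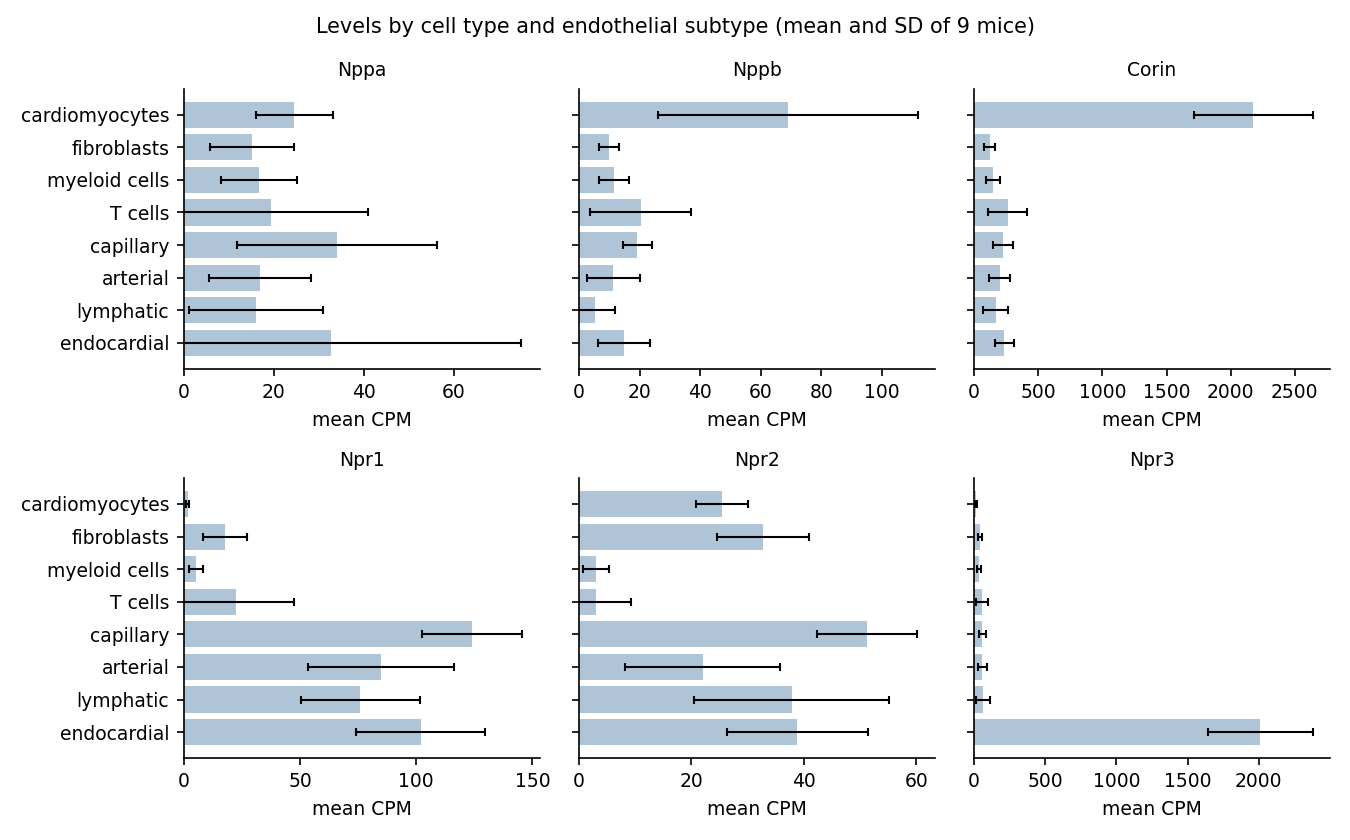
Mean CPM of each gene (horizontal axis, from 0, a separate scale per gene) in 4 cell types and 4 endothelial subtypes (vertical axis). Bars are means of 9 mice and lines are SD. Nppb and Corin are highest in cardiomyocytes, at 69.0 and 2177 CPM, Npr3 in endocardial nuclei, at 2011 CPM, and Npr1 and Npr2 in capillary nuclei, at 124 and 51.2 CPM, while the SD of Nppa overlaps in all types.

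Nppb in cardiomyocytes was lowest in the sham group. The level was 21.4, 10.0 and 39.3 CPM in sham 1 to 3, 41.7, 119 and 69.2 CPM in I/R 1 to 3, and 123, 91.0 and 107 CPM in SBP 1 to 3. All I/R and SBP mice lay above all sham mice, I/R 1 only just, and the I/R and SBP mice overlapped. Group means were 23.6 ± 14.8 CPM in sham, 76.5 ± 39.0 CPM in I/R and 107 ± 16.1 CPM in SBP (n = 3 each).

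In the limma fit across all genes, the log2 fold change of Nppb was 1.71 (SE 0.465, 95% interval 0.673 to 2.74) for I/R against sham, with an adjusted p of 0.147. For SBP against sham it was 2.36 (SE 0.465, 1.32 to 3.39), or 5.12-fold, with an adjusted p of 0.0802. For SBP against I/R it was 0.65 (SE 0.465, -0.384 to 1.68), with an adjusted p of 1, and it ranged from 0.316 without I/R 1 to 1.02 without I/R 2. None met the criterion for a call, which asked for an adjusted p no higher than 0.05 by limma together with a log2 fold change beyond 0.25 in either direction. Of 12903 genes tested in cardiomyocytes, 0.829% were called for I/R against sham, 0.14% for SBP against sham and 0% for SBP against I/R, where 279 genes had an unadjusted p under 0.05. Calls depended on I/R 1. Without it, the limma log2 fold change was 2.04 for I/R against sham (adjusted p 0.0331) and 2.36 for SBP against sham (adjusted p 0.0253), and the number of genes called for I/R against sham was 812 in place of 107. A limma fit to the 6 samples of SBP and sham alone also gave a call (2.36, adjusted p 0.0337). The number of genes called for SBP against sham was 278 without I/R 1 and 396 in the fit to 6 samples, in place of 18.

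The share of cardiomyocytes with an Nppb UMI followed the level. Thinned to 1000 UMIs, it was 1.81, 1.34 and 3.84% in the sham mice, 3.71, 9.97 and 6.76% in the I/R mice, and 12.0, 7.96 and 8.34% in the SBP mice. Only sham and SBP did not overlap. The means were 2.33 ± 1.33% and 9.44 ± 2.24%, and the two-sided exact permutation test gave p = 0.1, the smallest value possible with 3 mice against 3 (0.75 after adjustment over the 21 share comparisons). Unthinned, the sham, I/R and SBP means were 8.33 ± 6.12%, 18.0 ± 6.94% and 25.0 ± 3.90%. Nuclei with 5 or more Nppb UMIs numbered 2, 0 and 15 in the sham mice, 15, 34 and 27 in the I/R mice and 44, 30 and 33 in the SBP mice.

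Markers of cardiomyocytes also varied. The summed level of 6 cardiomyocyte markers, none of them at 0, was 45960 to 54351 CPM in sham, 31838 to 48668 CPM in I/R and 33935 to 37466 CPM in SBP. Per 1000 Ttn UMIs, Nppb was 0.557 to 2.64 in sham, 2.46 to 9.30 in I/R and 6.95 to 8.72 in SBP, so that SBP and sham stayed apart on this scale while I/R and sham overlapped. Per 1000 Myh6 UMIs it was 0.978 to 3.78 in sham, 4.83 to 62.7 in I/R and 15 to 42.1 in SBP, and both groups stayed above sham. By cluster, the pooled Nppb level was 137 CPM in cluster 1, 84.2 CPM in cluster 6, 82.8 CPM in cluster 2, 58.0 CPM in cluster 4, 32.2 CPM in cluster 0, 13 CPM in cluster 5 and 9.70 CPM in cluster 3. Cluster 5 came almost wholly from I/R 1, the I/R mouse closest to sham.

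Nppa showed another pattern in cardiomyocytes. It was 26.4, 8.49 and 36.6 CPM in the sham mice, 21.1, 22 and 16.3 CPM in the I/R mice, and 31.0, 30.3 and 28.5 CPM in the SBP mice. The sham mice spanned the values of both other groups, and the SBP mice lay above the I/R mice without overlap. That gap rested on 1 nucleus: a single cardiomyocyte of SBP 2 held 99 of its 209 Nppa UMIs. When the nucleus with the most Nppa UMIs of each mouse was left out, an alternative added after the data had been seen, the levels were 13.2 to 19.8 CPM in I/R and 16 to 28.2 CPM in SBP, which overlapped. Log2 fold changes in the limma fit were -0.07 for I/R against sham (95% interval -1.02 to 0.884, adjusted p 0.962), 0.64 for SBP against I/R (-0.315 to 1.59, adjusted p 1) and 0.57 for SBP against sham (-0.381 to 1.52, adjusted p 0.594). None was called.

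Much of the Nppa RNA came from few cardiomyocytes. Of 481 cardiomyocytes with a UMI, 79 held 5 or more and 64.2% of the 1485 UMIs, whereas for Nppb 200 of 1695 held 35.6% of 3886 UMIs. Cluster 6, with the conduction genes, had a pooled Nppa level of 215 CPM, against 4.46 to 36.8 CPM in the other clusters. Per mouse it was 543, 76.7 and 235 CPM in sham, 135, 186 and 75.1 CPM in I/R, and 194, 941 and 172 CPM in SBP. These values overlapped between groups and rested on 14 to 115 UMIs per mouse, of which 50 to 95.7% lay in 1 to 5 nuclei. With cluster 6 left out, an alternative added after the data had been seen, the Nppa log2 fold change for I/R against sham was 0.49 in place of -0.07, and it was 0.18 without the nucleus richest in Nppa of each mouse. The same cluster held 21 of the 95 cardiomyocyte UMIs of Npr1.

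The ratio of both peptide genes separated the sham mice from the others. Nppa UMIs per Nppb UMI in cardiomyocytes were 1.23, 0.846 and 0.932 in sham, 0.507, 0.185 and 0.236 in I/R, and 0.251, 0.333 and 0.267 in SBP. Every sham mouse lay above every I/R and SBP mouse. Nppb alone, given above, already separated sham from both groups, whereas the Nppa levels of sham spanned those of both. The share of gene pairs with such a gap was not tested, so this gap has no reference here. Of the Nppa UMIs behind these ratios, 1 nucleus held 131 of 372 in sham 3 and 1 held 99 of 209 in SBP 2. The ratio ranged from 1.15 to 3.33 for endothelial, 0.915 to 3.08 for fibroblast and 0.846 to 3.24 for myeloid nuclei. In endothelial nuclei every sham mouse (1.89 to 3.33) lay above every I/R mouse (1.15 to 1.80), while all other pairs of groups in these types overlapped. SBP 2, at 2.65, was the only SBP mouse above a sham mouse in endothelial nuclei. There, 1 nucleus held 86 of its 130 Nppa UMIs. The pooled ratio was 0.382 in cardiomyocytes against 1.94 (endothelial), 1.49 (fibroblast) and 1.54 (myeloid). In sham 1 it was 1.23 in cardiomyocytes against 3.33, 1.35 and 1.00, so that the difference between types varied with the mouse.

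Nppb was found more often in cardiomyocytes that also held Nppa. Nppb was detected in 184 of 481 nuclei with Nppa (38.3%) and in 1511 of 10059 nuclei without it (15%), with median depths of 5494 and 4395 UMIs. The order held in each of the 9 mice, from 12.1% against 3.74% in sham 2 to 54.7% against 27.7% in SBP 1. Depth was higher in the nuclei with Nppa in 8 of the 9 mice, with sham 2 as the exception (3556 against 3660 UMIs), and the part of depth in this difference was not tested.

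**Figure D2:**
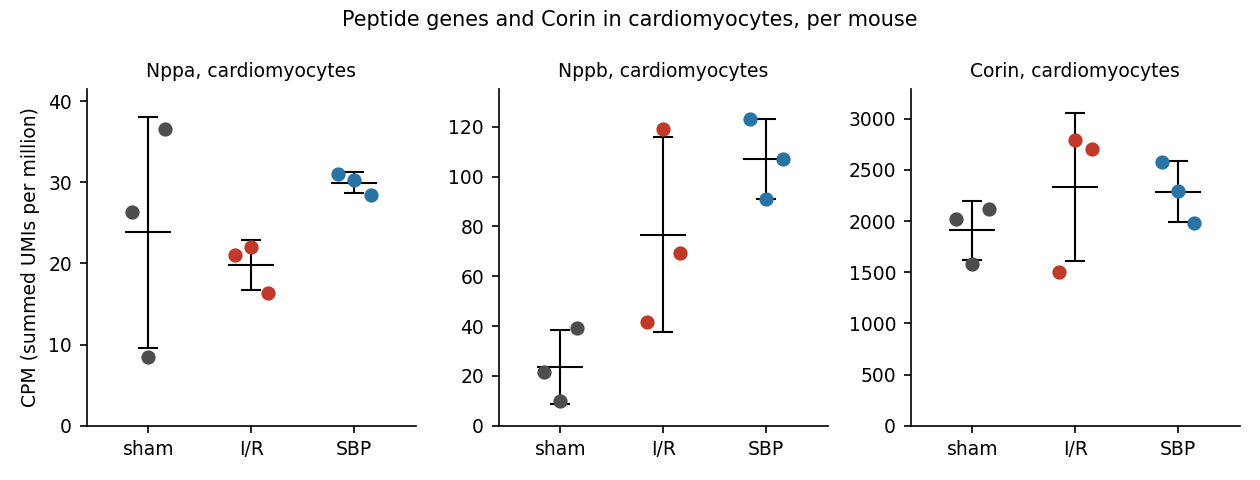
CPM of Nppa, Nppb and Corin in cardiomyocytes (vertical axes, from 0, a separate scale per gene) for the 3 mice of each group. Points are mice, wide bars means and thin bars SD. All Nppb points of I/R (41.7 to 119 CPM) and SBP (91.0 to 123 CPM) lie above those of sham (10.0 to 39.3 CPM), and the groups overlap for Corin.

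Corin in cardiomyocytes was 2021, 1582 and 2122 CPM in the sham mice, 1503, 2794 and 2706 CPM in the I/R mice, and 2581, 2296 and 1984 CPM in the SBP mice. All groups overlapped, and I/R 1 had the lowest value of all. The limma log2 fold changes were 0.23 (95% interval -0.343 to 0.809, adjusted p 0.719), 0.07 (-0.502 to 0.65, adjusted p 1) and 0.31 (-0.27 to 0.883, adjusted p 0.647) for I/R against sham, SBP against I/R and SBP against sham.

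Corin was also counted at low levels in fibroblasts. It was 177, 177 and 150 CPM in sham, 63.7, 124 and 133 CPM in I/R, and 135, 70.1 and 66.1 CPM in SBP. All sham mice lay above all others. The log2 fold change was -0.79 for I/R against sham (SE 0.328, adjusted p 0.158) and -0.998 for SBP against sham (SE 0.328, adjusted p 0.116) by limma, neither of them called. Of 13075 genes tested in fibroblasts, 11.6% were called for I/R against sham, 6.12% for SBP against sham and 0% for SBP against I/R (461 genes at an unadjusted p under 0.05). For SBP against sham, a call was made without I/R 1 (limma adjusted p 0.0262), without SBP 1 (log2 fold change -1.34, adjusted p 0.0327) and in the fit to 6 samples (-0.985, adjusted p 0.0352). In the fit to 6 samples 1047 genes were called, in place of 800. The 6 cardiomyocyte markers were likewise lower in the fibroblasts of these groups, with summed levels of 4363 to 5432 CPM in sham, 1536 to 2346 CPM in I/R and 1541 to 2213 CPM in SBP. Per 1000 Ttn UMIs, fibroblast Corin was 115 to 143 in sham, 103 to 299 in I/R and 168 to 206 in SBP, against 87.9 to 143, 88.6 to 225 and 152 to 183 in the cardiomyocytes of the same mice. Per 1000 Myh6 UMIs, fibroblast Corin was 98.1 to 129 in sham, 98.4 to 499 in I/R and 152 to 296 in SBP.

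In capillary nuclei Corin was 321, 262 and 280 CPM in sham, 140, 241 and 254 CPM in I/R, and 281, 146 and 95.5 CPM in SBP. I/R lay below sham without overlap, and SBP overlapped both. The limma log2 fold change of SBP against sham was -0.80 (SE 0.368, adjusted p 0.316), and without SBP 1 it was -1.24 and called (adjusted p 0.0454). Cardiomyocyte markers were also lower in the capillary nuclei of I/R and SBP (3222 to 5493 CPM) than in those of sham (9863 to 10471 CPM), and their part in the Corin values was not tested.

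Npr1 was highest in endothelial nuclei. It averaged 124 ± 21.7 CPM in capillary, 102 ± 27.8 CPM in endocardial, 84.8 ± 31.6 CPM in arterial and 76.0 ± 25.4 CPM in lymphatic nuclei (n = 9), and neighbours in this order overlapped. Fibroblasts had 17.7 ± 9.29 CPM, myeloid cells 5.18 ± 3.01 CPM and cardiomyocytes 1.63 ± 0.633 CPM. No UMI was found in 335 B cells, which allows a share of nuclei with a UMI, not of nuclei that express the gene, of up to 0.896%. Thinned to 1000 UMIs, 11.2% of capillary nuclei (10.4 to 12.1%) and 9.91% of endocardial nuclei (8.93 to 11%) had a UMI, against 2.06% of fibroblasts, 0.481% of myeloid cells and 0.161% of cardiomyocytes. Unthinned, these shares were 14.2%, 18.7%, 3.55%, 0.846% and 0.844%, with median depths of 1128 and 1714 UMIs in capillary and endocardial nuclei. Thinning kept 5079 of 7893 capillary and 3399 of 3882 endocardial nuclei.

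No difference of Npr1 between groups passed the test. In capillary nuclei it was 124, 139 and 107 CPM in sham, 127, 101 and 98.2 CPM in I/R, and 165, 141 and 112 CPM in SBP. The groups overlapped, and SBP 1 was the highest mouse. The limma log2 fold change was -0.15 for I/R against sham (95% interval -0.529 to 0.234, adjusted p 0.73), 0.37 for SBP against I/R (-0.0146 to 0.749, adjusted p 0.975) and 0.22 for SBP against sham (-0.162 to 0.601, adjusted p 0.596). Of 10415 genes tested in capillary nuclei, 4.68% were called for I/R against sham, 3.29% for SBP against sham and 0% for SBP against I/R (505 genes at an unadjusted p under 0.05).

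In endocardial nuclei Npr1 was 89.6, 87.6 and 125 CPM in sham, 76.1, 121 and 83.6 CPM in I/R, and 160, 81.4 and 92.0 CPM in SBP. SBP 1 again stood highest, and its removal turned the log2 fold change of SBP against I/R from 0.23 to -0.11. Of 9944 genes tested there, 0.402% were called for I/R against sham, 0.422% for SBP against sham and 0% for SBP against I/R (460 genes at an unadjusted p under 0.05).

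Npr2 was spread over more types. It averaged 51.2 ± 8.87 CPM in capillary, 38.8 ± 12.5 CPM in endocardial, 37.8 ± 17.3 CPM in lymphatic and 22 ± 13.8 CPM in arterial nuclei, 32.7 ± 8.12 CPM in fibroblasts and 25.4 ± 4.63 CPM in cardiomyocytes, with only 3.04 ± 2.30 CPM in myeloid cells. Adjacent values other than that of myeloid cells overlapped. Nppc, which encodes C-type peptide, had 21 UMIs in the whole series.

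Npr2 in fibroblasts had the lowest adjusted p among the 90 limma tests of the 6 genes, alternative fits aside. The adjustment was made within each cell set and comparison, so this is not an order of strength. Unadjusted, the limma p was 0.00805 for Npr2 in fibroblasts (I/R against sham). For Nppb in cardiomyocytes it was lower, at 0.00422 for I/R and 0.000466 for SBP against sham. The level was 38.6, 43.9 and 31.6 CPM in sham, 28.4, 28.9 and 17.6 CPM in I/R, and 41.9, 28.4 and 34.5 CPM in SBP. All I/R mice lay below all sham mice, while SBP overlapped both. The limma log2 fold change was -0.69 for I/R against sham (SE 0.217, 95% interval -1.16 to -0.215), with an adjusted p of 0.0613, just above the threshold. It was 0.53 for SBP against I/R (0.0524 to 0.997, adjusted p 1) and -0.16 for SBP against sham (-0.635 to 0.31, adjusted p 0.736). Thinned shares of fibroblasts with an Npr2 UMI averaged 3.31 ± 0.691%, 2.92 ± 0.847% and 3.94 ± 0.514% (sham, I/R and SBP), with overlap throughout.

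In endothelial cells as a whole, Npr2 was 48.2, 51.6 and 43.9 CPM in sham, 42.0, 40.9 and 30.0 CPM in I/R, and 52.2, 48.7 and 36.9 CPM in SBP. I/R lay below sham without overlap, by a limma log2 fold change of -0.33 (SE 0.185, adjusted p 0.381). Of 12222 genes tested in endothelial cells, 3.27% were called for I/R against sham, 2.27% for SBP against sham and 0% for SBP against I/R (631 genes at an unadjusted p under 0.05). In cardiomyocytes Npr2 stayed between 20.3 and 32.1 CPM in all mice, and the groups overlapped.

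Npr3 was highest in endocardial nuclei. It averaged 2011 ± 369 CPM in endocardial nuclei, against 65.8 ± 48.7 CPM in lymphatic, 59.5 ± 25.5 CPM in capillary and 58.0 ± 33.3 CPM in arterial nuclei, which overlapped, 42.5 ± 13 CPM in fibroblasts, 36.1 ± 13.2 CPM in myeloid cells and 13.1 ± 4.57 CPM in cardiomyocytes. A UMI was found in 80.4% of endocardial nuclei (79.1 to 81.7%) and in 6.66% of capillary nuclei, or in 72.2% and 5.32% after thinning. The endocardial lining faces the blood of the chambers, and its nuclei were named from Nfatc1, Cdh11, Hmcn1 and other markers and clustered without Npr3. Npr3 was nevertheless among the leading genes of the larger endocardial cluster. The summed level of 5 venous markers was 628 to 1321 CPM in endocardial and 378 to 673 CPM in capillary nuclei. The part of venous nuclei in the levels of these sets was not tested.

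The endocardial level of Npr3 differed between groups by less than the spread between mice. It was 2141, 1440 and 2388 CPM in sham, 2424, 1568 and 1939 CPM in I/R, and 1729, 2397 and 2071 CPM in SBP. The ranges of the 3 groups lay over one another. The limma log2 fold change was 0.04 for I/R against sham (95% interval -0.424 to 0.512), 0.09 for SBP against I/R (-0.373 to 0.562) and 0.14 for SBP against sham (-0.329 to 0.606), with adjusted p values of 0.963, 0.996 and 0.88. No interval reached beyond 0.606 upward or -0.424 downward.

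Over all endothelial cells, Npr3 was 1061, 625 and 621 CPM in sham, 760, 696 and 693 CPM in I/R, and 929, 874 and 825 CPM in SBP. The SBP mice lay above the I/R mice without overlap, and sham spanned both groups. The limma log2 fold change was 0.31 for SBP against I/R (SE 0.191, 95% interval -0.111 to 0.721, adjusted p 0.987) and was not called. Endocardial nuclei made up 37.1, 28.2 and 17.4% of endothelial nuclei in sham, 22.2, 34.3 and 23.4% in I/R, and 39.8, 28.4 and 30.2% in SBP, and the part of this share in the endothelial level was not tested.

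Among nuclei of the endocardium, those with Npr1 also carried Npr3 in 86.5% of cases (626 of 724, median 2060 UMIs), against 79.0% of those without it (2496 of 3158, median 1650 UMIs). The nuclei with Npr1 were thus also deeper. In capillary nuclei Npr3 was 76.5, 58.6 and 66.0 CPM in sham, 34.2, 54.6 and 49.8 CPM in I/R, and 117, 43.0 and 35.7 CPM in SBP. The I/R mice lay below the sham mice, by a limma log2 fold change of -0.51 (SE 0.387, adjusted p 0.549), and SBP 1 stood above all. The summed level of 7 endocardial markers in capillary nuclei was 667 to 969 CPM in sham, 607 to 777 CPM in I/R and 707 to 1046 CPM in SBP, with SBP 1 highest, and its part in the Npr3 values was not tested.

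**Figure D3:**
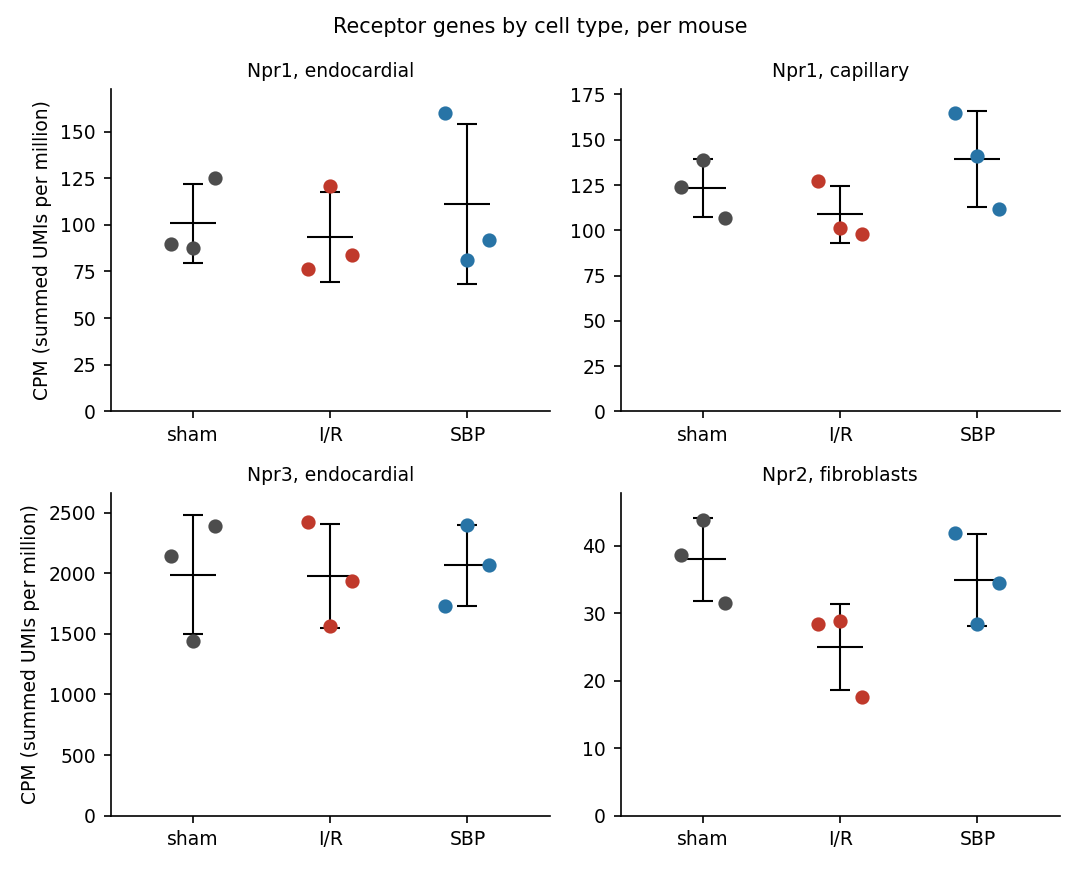
CPM of Npr1 in endocardial and capillary nuclei, Npr3 in endocardial nuclei and Npr2 in fibroblasts (vertical axes, from 0, a separate scale per panel) for the 3 mice of each group. Points are mice, wide bars means and thin bars SD. The groups overlap except for Npr2 in fibroblasts, where I/R (17.6 to 28.9 CPM) lies below sham (31.6 to 43.9 CPM).

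Over 5 cell sets (cardiomyocytes, endothelial cells, fibroblasts, endocardial and capillary nuclei) and 3 comparisons, the 6 genes gave 90 tests. None was called by limma on log2 values, 0 were called by limma-voom, and 6 had an unadjusted p under 0.05 (3 for I/R against sham, 1 for SBP against I/R and 2 for SBP against sham, of 30 tests each). Over all genes tested in the 5 cell sets, an unadjusted p under 0.05 was found for 12.2 to 25.5%, 2.16 to 5.16% and 10.8 to 19.8% of genes. Groups did not overlap in 11 of the 90. These were Nppb in cardiomyocytes (I/R and SBP, each against sham), Nppa in cardiomyocytes, where 1 nucleus of SBP 2 made the gap, and in fibroblasts (both SBP against I/R), Npr2 in fibroblasts and in endothelial cells (I/R against sham), Npr3 in endothelial cells (SBP against I/R) and in capillary nuclei (I/R against sham), and Corin in fibroblasts (I/R and SBP, each against sham) and in capillary nuclei (I/R against sham). Over all genes tested, groups did not overlap for 15.8 to 27.0% of genes in I/R against sham, 5.74 to 9.14% in SBP against I/R and 18.5 to 27.1% in SBP against sham. Both I/R and SBP were set against the same 3 sham mice. Per the paper's supplement, the sham libraries had fewer low-quality reads and a lower raw GC content than every I/R and SBP library. More of their reads were removed for unknown bases. The part of these sequencing differences in the comparisons with sham was not tested.

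**Figure D4:**
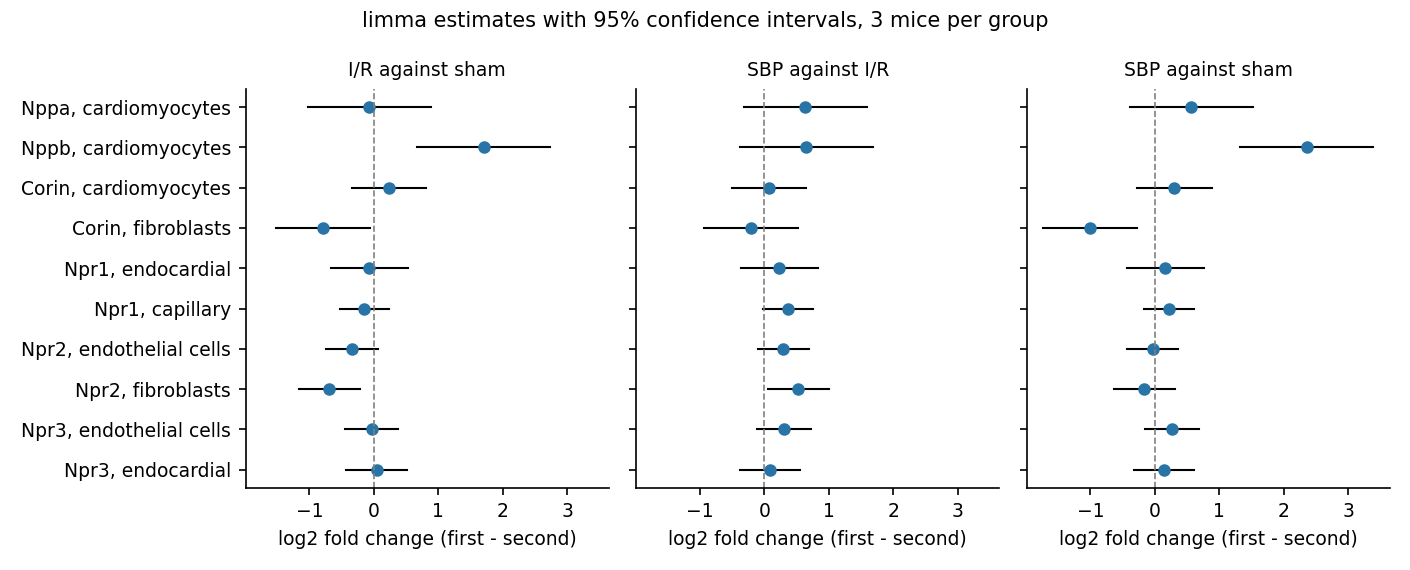
Log2 fold changes of the limma fit (horizontal axis, first group minus second) for 10 pairs of gene and cell set (vertical axis) in the 3 comparisons. Points are estimates and lines 95% confidence intervals, with 3 mice per group. The interval of Nppb in cardiomyocytes lies above 0 for I/R (0.673 to 2.74) and SBP (1.32 to 3.39) against sham, and those of Npr3 in endocardial nuclei span 0 in every comparison.

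Genes of the same pathway were described from 4 lists, which were chosen with earlier results of these data known. Among 6 genes of ligands, processing and clearance, Pcsk6, a proprotein convertase, was called in fibroblasts for I/R against sham, as 1 of 4 genes tested, where 5.13% of all genes were called lower. It was 801, 1167 and 1005 CPM in sham, 558, 389 and 579 CPM in I/R, and 805, 837 and 1045 CPM in SBP. I/R lay below both other groups without overlap, and the limma log2 fold change against sham was -1.05 (SE 0.195, adjusted p 0.00511), a call that was also made in each of the 9 fits without 1 mouse (adjusted p up to 0.0306 over all alternatives). The cardiomyocyte markers in fibroblasts, given with Corin, were lower in the same I/R mice, and Pcsk6 was at 8.62 CPM pooled over cardiomyocytes, against 783 CPM in fibroblasts. No other gene of this list was called in any of the 5 cell sets, where 0 to 11.6% of all genes were called. The 4 genes of the list tested in cardiomyocytes had median log2 fold changes of -0.45, -0.14 and -0.30 for I/R against sham, SBP against I/R and SBP against sham (all genes: -0.0272, -0.000384 and -0.0249). Mme, which encodes neprilysin, the peptidase that degrades natriuretic peptides, was highest in fibroblasts among the main types, at a pooled 71.8 CPM. Ostn, whose peptide occupies the clearance receptor, had 5 UMIs in the series.

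Of 17 genes of cyclic GMP production, breakdown and action, 14 were tested in fibroblasts and 3 were called lower in I/R than in sham, and none higher, where 11.6% of all genes were called and 5.13% were called lower. Gucy1a2, a subunit of soluble guanylyl cyclase, was 420, 454 and 430 CPM in sham, 296, 152 and 145 CPM in I/R, and 253, 307 and 271 CPM in SBP, so that all sham mice lay above all others. Its limma log2 fold change for I/R against sham was -1.30 (SE 0.217, adjusted p 0.00278), and it was called in each of the 9 fits without 1 mouse. Pde1c, a phosphodiesterase, fell by 1.38 on the log2 scale (SE 0.3, adjusted p 0.0136) and Mrvi1, a substrate of the cyclic GMP-dependent kinase, by 1.30 (SE 0.307, adjusted p 0.0208). The Pde1c call was lost without sham 3, and that of Mrvi1 without sham 1, sham 2, sham 3, I/R 2 or I/R 3 (limma adjusted p up to 0.0569 and 0.0841). The latter was also lost when cell types came from the highest marker score (log2 fold change -1.2, limma adjusted p 0.0544). Pooled over cardiomyocytes, Gucy1a2 was 6.53 CPM and Mrvi1 3.78 CPM, against 289 and 64.5 CPM in fibroblasts. Both were highest in smooth muscle cells with pericytes, at a pooled 694 and 450 CPM. The summed level of 6 markers of that type in fibroblasts was 342 to 423 CPM in sham, 219 to 277 CPM in I/R and 240 to 296 CPM in SBP. The part of these markers in the Gucy1a2 and Mrvi1 values was not tested. The median of the 14 genes was 0.12 (all genes: -0.01), of opposite sign to the called ones.

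Pde1c also fell in SBP against sham, by 1.42 in fibroblasts (adjusted p 0.0178) and by 1.70 in capillary nuclei (adjusted p 0.022). These calls were lost in 4 and 5 of the 9 limma fits without 1 mouse, with adjusted p up to 0.0745 and 0.081 (without sham 2, sham 3, SBP 1 or SBP 3 in both, and without sham 1 in capillary nuclei). In capillary nuclei the call was also lost when cell types came from the highest marker score (-1.45, limma adjusted p 0.104). Pde1c was highest in cardiomyocytes, at a pooled 551 CPM, and the summed cardiomyocyte markers were lower in the I/R and SBP mice in both of these cell sets. In capillary nuclei their sum was 9863 to 10471 CPM in sham, 3569 to 5493 CPM in I/R and 3222 to 4122 CPM in SBP. The part of these markers in the Pde1c values was not tested. In cardiomyocytes, endothelial cells and endocardial nuclei no gene of this list was called (13, 15 and 12 tested, with 0 to 5 at an unadjusted p under 0.05 in a comparison). Of all genes tested in these sets, 0 to 3.27% were called and 2.16 to 17.6% had an unadjusted p under 0.05. Prkg1, the main kinase of cyclic GMP, was highest in the same subtype as Npr3, with a pooled 7183 CPM in endocardial nuclei against 668 CPM in capillary nuclei.

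Of 13 transcription factors known to act on the peptide genes, none was called in cardiomyocytes (12 tested, 0 to 0.829% of all genes called). The median log2 fold change there was 0.06 for I/R against sham and 0.25 for SBP against sham (all genes: -0.0272 and -0.0249). In fibroblasts 3 of 13 were called lower in I/R than in sham by limma, against 5.13% of all genes. Tbx20 fell by 1.15 (SE 0.298, adjusted p 0.0312), from 641 ± 203 to 309 ± 113 CPM. Gata4 fell by 0.865 (SE 0.223, adjusted p 0.0273), from 248 ± 21.7 to 148 ± 45.0 CPM, and Mef2c by 0.798 (SE 0.194, adjusted p 0.0206), from 195 ± 56.9 to 116 ± 17.1 CPM. Gata4 was also called lower in capillary nuclei for SBP against sham (-0.87, adjusted p 0.0391). The Tbx20 call was lost without sham 1, sham 3, I/R 2 or I/R 3, and that of Mef2c without sham 2, sham 3 or I/R 2. The Gata4 call in fibroblasts was lost without any 1 of the sham mice or I/R 2, and in capillary nuclei without any 1 of the sham mice, SBP 1 or SBP 2 (limma adjusted p up to 0.124, 0.097, 0.118 and 0.716 over all alternatives for Tbx20, Mef2c and Gata4 in both sets). The fibroblast calls of Mef2c and Gata4 were also lost in the fit to the 6 samples of I/R and sham (limma adjusted p 0.0514 and 0.0537), where the changes themselves, -0.798 and -0.865, were those of the fit to 9 mice. The highest adjusted p belonged to cell types taken from the highest marker score, where the capillary Gata4 change was -0.31. A limma fit with replicate numbers as blocks also lost the capillary Gata4 call (-0.87, adjusted p 0.0725). Tbx20 was highest in fibroblasts at a pooled 426 CPM, whereas Gata4 was highest in cardiomyocytes (410 CPM) and Mef2c was higher in cardiomyocytes (273 CPM) than in fibroblasts (152 CPM). The summed cardiomyocyte markers given above were lower in the fibroblasts of I/R and the capillary nuclei of SBP than in those of sham, and their part in the Gata4 and Mef2c values was not tested.

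The stress genes of cardiomyocytes, Ankrd1, Xirp2, Acta1, Myh7, Flnc and Lmcd1, were not called in cardiomyocytes in any comparison. Their median log2 fold change was 0.40 for I/R against sham, 0.28 for SBP against I/R and 1.08 for SBP against sham, where 5 of 6 had an unadjusted p under 0.05, as had 13.5% of all genes. The corresponding values for Nppb were 1.71, 0.65 and 2.36. Since the list of stress genes was chosen with earlier results of these data known, its counts are a description only. In capillary nuclei Xirp2, an actin-binding protein of striated muscle, fell by 0.733 in I/R (adjusted p 0.0172) and by 0.763 in SBP (adjusted p 0.0184) against sham. With cell types from the highest marker score neither was called (limma adjusted p 0.0743 and 0.0721), although the changes were -0.85 and -0.89. Both calls were lost without any 1 of the sham mice, the first also without I/R 2 and the second without SBP 2 or SBP 3 (limma adjusted p up to 0.0753 and 0.0831). The cardiomyocyte markers of capillary nuclei, given above, were lower in the same groups, and their part in the Xirp2 values was not tested.

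The genes most like each of the 6 were named by Pearson correlation of log2(CPM + 1), as a description. Across 12 cell types and subtypes, which include endothelial cells and their 4 subtypes, Npr3 was most like H19 (r = 0.973), Smoc1 (0.971) and Nrg1 (0.956), Corin most like Kbtbd12 (0.988), Txlnb (0.983) and Tnnt2 (0.982), and Nppb most like Slc6a8 (0.966), Ehhadh (0.956) and Perm1 (0.951). Npr1 was most like Grasp (0.971), Npr2 most like Zfp532 (0.973) and Nppa most like Mkrn2 (0.957). Over the 9 mice, in the type with the highest mean, Nppb was most like Fstl4 (0.975), Rbpms (0.973) and Agfg1 (0.964) in cardiomyocytes, Corin most like Pdcd11 (0.96), Npr3 most like Ptpn14 (0.977) in endothelial cells, Npr1 most like Evi5l (0.916), Npr2 most like Ring1 (0.918) and Nppa most like Gm36445 (0.919). These were the highest of 12222 or 12903 genes, and the points share libraries and depth.

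Summed over all nuclei of a heart, in which fewer cells of a type and less RNA per cell cannot be told apart, Nppb was 15.7, 8.24 and 30.9 CPM in sham, 22.1, 48.6 and 38.2 CPM in I/R, and 61.2, 46.5 and 48.2 CPM in SBP. SBP lay above sham without overlap, and I/R overlapped both. The two-sided exact permutation test gave p = 0.1 for SBP against sham, the smallest value possible (0.6 after adjustment over 18 tests). The same p was found for Npr2, which was 30.7, 36.3 and 24.5 CPM in sham, 23.4, 22.9 and 18.7 CPM in I/R, and 35.1, 24.5 and 25.6 CPM in SBP, with I/R below both other groups. Nppa, Npr1, Npr3 and Corin overlapped in all 3 comparisons. The share of all genes without overlap was not tested for these sums, so these gaps have no reference here. In the cell sets above, that share was 15.8 to 27% for I/R and 18.5 to 27.1% for SBP against sham. For SBP against I/R it was 5.74 to 9.14%.

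The whole-heart level of Npr3 is given beside the share of endocardial nuclei, which held 81.6% of all Npr3 UMIs. The whole-heart level was 209, 158 and 102 CPM in sham, 106, 140 and 138 CPM in I/R, and 222, 128 and 172 CPM in SBP. Endocardial nuclei made up 10.0, 9.49 and 4.99% of all nuclei in sham, 4.54, 8.73 and 6.60% in I/R, and 13.1, 6.45 and 8.65% in SBP. The 3 mice with the smallest shares (I/R 1, sham 3 and SBP 2, 1 of each group) had the 3 lowest Npr3 sums, and the mice with the largest shares (SBP 1 and sham 1) the highest. Within endocardial nuclei the same 3 mice had the 3 highest levels, at 2424, 2388 and 2397 CPM. The part of the endocardial share in the whole-heart level was not tested.

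**Figure D5:**
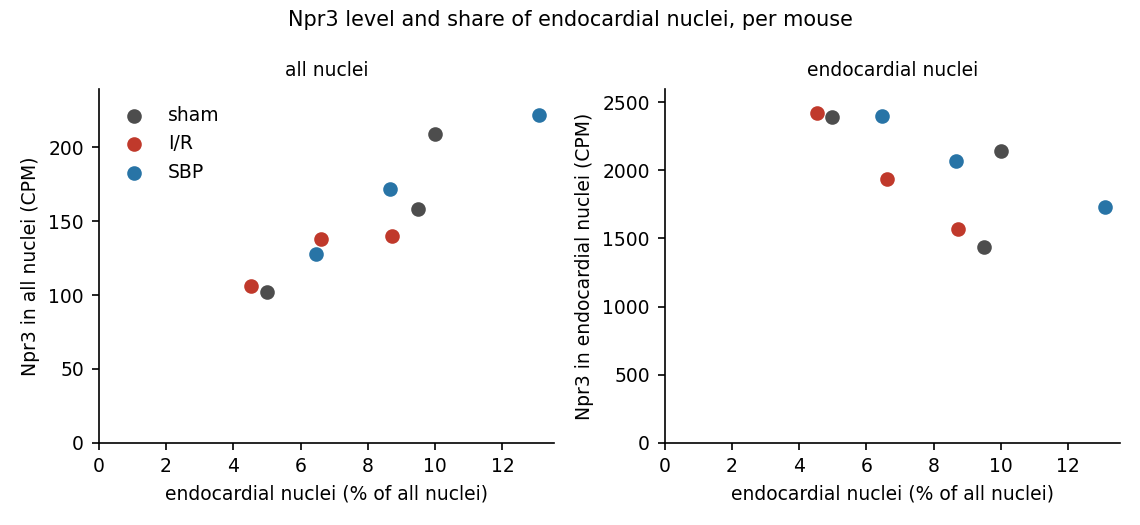
Npr3 (vertical axes, CPM from 0) against the share of endocardial nuclei (horizontal axes, % of all nuclei of a mouse), for the sum over all nuclei (left) and over endocardial nuclei (right). Points are mice, coloured by group. The sum over all nuclei runs from 102 CPM at 4.99% to 222 CPM at 13.1%, while the endocardial level lies between 1440 and 2424 CPM.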

How the data were processed

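sNuc-seq tables of 9 mouse hearts, 3 per group, were analysed. Per the methods and the submitters' processing notes, the authors counted UMIs with Cell Ranger (4.0 in the notes) on the mouse build GRCm38, down-sampled reads, filtered out nuclei with 200 genes or fewer or with 10% or more mitochondrial UMIs, removed the mitochondrial genes and used Seurat (3.2.0 in the notes) for normalization. Every deposited nucleus held 405 genes or more, and the paper reports more cells after quality control than the 49171 deposited nuclei. The reason for this was not given. Down-sampling reduces the UMIs behind each level, and nuclei hold little of the cytoplasmic mRNA. The deposited values are natural log values, ln(1 + 10000 × UMIs of the gene / UMIs of the nucleus). Undoing the log gave UMIs, and at least 99.99956% of values lay within 0.1 of a whole number.

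The 6 genes and the gene lists were chosen with earlier results of these data known. Doublets were scored with Scrublet in Scanpy 1.11.5, whose threshold marked 85 nuclei (0.173%). A caller that marks so few cannot be taken to have worked, and an alternative removed the 2168 highest-scoring nuclei. Nuclei were clustered (Leiden, 2000 variable genes without the 6 genes, 30 components, resolution 0.5, endothelial nuclei again at 0.2 and cardiomyocytes at 0.3), with resolutions chosen after clusters had been inspected, and a cluster took the name of a type if 3 or more of its markers each reached over 10% of the nuclei.

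UMIs were summed per mouse and type (at least 20 nuclei) and scaled with TMM factors. limma 3.58.1 in R 4.3.3, with trend and robust variances, was fitted to log2(CPM + 1) of the 9 mice with 3 groups, which understates fold changes of low genes. A gene was tested if its CPM corresponded to 10 UMIs or more of a median-sized library in 3 samples and its total was 15 UMIs or more. The deposited unit was a log value, so a count model was not the main test, and limma-voom on the recovered UMIs was an alternative. Calls required p no higher than 0.05 after Benjamini-Hochberg adjustment over all genes tested, with a log2 fold change beyond 0.25 in either direction. Shares and whole-heart sums were compared by two-sided exact permutation tests. The fit was tested on simulated data. Genes named were the 6, the called genes of the lists (at most the 3 largest changes per list, cell type and comparison) and the 3 most correlated genes of each member, of which some are given. Alternatives changed the pseudocount (5), the scaling, the filter, the samples in the fit, the test (limma-voom), doublet removal and the cell type calls. Gene positions came from GENCODE M21 and promoters from RefSeq. Of the atrial markers planned, Bmp10 was not analysed here.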

Additional observations from a re-analysis of the deposited data

How the results depend on the processing

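Alternative fits were counted for chosen pairs of gene and cell set, without Corin and Npr3 in capillary nuclei or Nppa in fibroblasts. Of these 678 fits, 643 kept the direction and the side of the threshold and 6 passed it. The remaining 29 turned the direction of a change that was not called. The call of Corin in capillary nuclei without SBP 1 (limma adjusted p 0.0454) is thus not among the 6. Fitted to the 6 samples of the compared groups only, the log2 fold changes of 2.36 for Nppb in cardiomyocytes and -0.985 for Corin in fibroblasts (SBP against sham) were called. The cause of these calls was not tested. Turned in I/R against sham were Nppa in cardiomyocytes, to 0.0106 when the 6 genes were used in clustering, to 0.489 without cluster 6 and to 0.179 without the nucleus richest in Nppa of each mouse (both added after the data had been seen), Npr1 in endothelial cells (0.0611), in endocardial nuclei (0.0446) and Npr3 in endothelial cells (0.00739) after removal of the 2168 highest-scoring nuclei, and Npr1 in endocardial (0.0584) and capillary nuclei (0.0652) when types came from the highest marker score. For SBP against sham, Npr2 in endothelial cells turned to 0.0189 after that removal.

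Without 1 mouse each, the log2 fold change of I/R against sham ranged from -0.702 to 0.362 for Nppa and from 1.17 to 2.18 for Nppb in cardiomyocytes, from -0.0653 to 0.0613 for Npr1 and from -0.155 to 0.229 for Npr3 in endothelial cells, and from -0.286 to 0.0827 for Npr1 and from -0.169 to 0.184 for Npr3 in endocardial nuclei. SBP against I/R ranged from -0.182 to 0.22 for Corin in cardiomyocytes, and from -0.106 to 0.443 for Npr1 and from -0.0582 to 0.272 for Npr3 in endocardial nuclei. SBP against sham ranged from -0.0519 to 0.998 for Nppa and from 1.84 to 2.83 for Nppb in cardiomyocytes, from -0.0123 to 0.355 for Npr1 and from -0.16 to 0.129 for Npr2 in endothelial cells, from -0.188 to 0.373 for Npr1 and from -0.0749 to 0.276 for Npr3 in endocardial nuclei, and from -1.34 to -0.809 for Corin in fibroblasts. Nppb was called without I/R 1 in both comparisons with sham, at 2.04 and 2.36.

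Share differences turned, in percentage points, for Nppa in cardiomyocytes (SBP against I/R, -0.184 unthinned), for Npr1 in endocardial nuclei (unthinned, 0.444 for I/R and 1.42 for SBP against sham, and 0.326 for SBP against sham at 500 UMIs) and, at 500 UMIs, for Npr3 in endocardial nuclei (1.1, SBP against I/R), Npr1 in capillary nuclei (0.271, I/R against sham) and Npr2 in fibroblasts (-0.021, SBP against sham). Corin over all nuclei turned to 0.019 with TMM scaling (SBP against I/R). Without 1 mouse, log2 ratios over all nuclei ranged from -0.898 to 0.0741 for Nppa, -0.336 to 0.066 for Npr1 and -0.385 to 0.127 for Corin in I/R against sham, from -0.271 to 0.241 for Corin in SBP against I/R, and from -0.509 to 0.463 for Nppa, -0.0356 to 0.592 for Npr1, -0.282 to 0.0425 for Npr2 and -0.0775 to 0.42 for Npr3 in SBP against sham.

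The number of genes called depended on the mice. Without 1 mouse it ran from 18 to 812 (107 in the fit to all mice) for I/R against sham and from 0 to 278 (18) for SBP against sham in cardiomyocytes, from 76 to 615 (400) and 50 to 410 (278) in endothelial cells, from 804 to 1704 (1522) and 363 to 962 (800) in fibroblasts, from 4 to 91 (40) and 5 to 81 (42) in endocardial nuclei, and from 178 to 654 (487) and 124 to 496 (343) in capillary nuclei. The lowest and highest of the other alternatives were 48 and 110, 0 and 396, 236 and 453, 137 and 545, 1027 and 1506, 478 and 1047, 3 and 107, 8 and 109, 141 and 590, and 88 and 641 in the same order. SBP against I/R stayed between 0 and 4 genes. Of 240 alternative fits for the 12 calls of listed genes, 192 kept the call, 48 lost it and none turned its direction.

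Replicate numbers did not pair the mice. Same-numbered mice had correlated deviations from their group means over 0.1 in 1 to 5 of 9 pairs per cell set (r from -0.338 to 0.296), and 1 to 4 of the mice were most like a mouse of their own number. With the replicate block, Nppb in cardiomyocytes stayed at 1.71 (adjusted p 0.211) for I/R and 2.36 (adjusted p 0.142) for SBP against sham in limma. No call of the 6 genes changed. The call of Gata4 in capillary nuclei (SBP against sham) was lost at a limma adjusted p of 0.0725, although the change was still -0.87. For I/R and SBP against sham, 90 and 11 genes were called in cardiomyocytes, with 25 and 8 in endocardial nuclei and 313 and 161 in endothelial cells. Nppa rested on 3099 UMIs in all and Npr1 in cardiomyocytes on 95, and the part of depth in the lack of calls was not tested.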
